A study of Homo sapiens with 17 samples.

Results

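The integrated stress and protein folding response was described here through 40 genes, found by their symbols in the gene count tables, which list 23230 genes. All 40 were present and all passed the filter on low counts, the lowest being PPP1R15A with 143 reads in its lowest library. By role they were 8 transcription factors, 5 sensors and feedback genes, 3 brakes on growth and translation, 7 amino acid and metabolic targets, 3 other stress targets, 11 chaperones and folding enzymes of the endoplasmic reticulum (ER), and 3 genes of ER-associated degradation. For counting, the first 5 roles without DNAJC3 formed an amino acid arm of 25 genes, and the last 2 roles with DNAJC3 formed a folding arm of 15.

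The RNA came from LNCaP, an established human prostate cancer cell line that depends on androgen, and from LNCaP-abl (abl below), a subline that grows without it. LNCaP was used at passages 32 to 34 and was grown in 10% serum, and abl was used at passages 62 to 64 and was grown in 10% serum stripped with charcoal, which removes most steroid hormones. Each line received 40 nM of a control siRNA (siControl), of siCREB1 or of siFOXA1 for 3 days, in 5% charcoal-stripped serum. CREB1 is a transcription factor activated by cyclic AMP that binds the cAMP response element, and FOXA1, a forkhead pioneer factor, makes chromatin accessible to other factors in prostate cells. The 6 groups hold 2 count columns each, read here as 2 libraries. The labels do not say whether those came from separate cultures, so p-values measure only the spread between these libraries, which may be technical. Line, passage range and growth medium cannot be told apart in any comparison of abl with LNCaP. In bulk RNA, fewer cells expressing a gene and less RNA per cell cannot be told apart either.

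In the integrated stress response, kinases that sense missing amino acids (EIF2AK4, also GCN2) or unfolded protein in the ER (EIF2AK3, also PERK) phosphorylate the initiation factor eIF2. Most translation then slows while ATF4 protein is made, and ATF4 switches on genes for amino acid supply, redox balance and feedback. In the unfolded protein response, PERK acts beside the sensors IRE1 and ATF6, which raise chaperones, folding enzymes and the machinery that removes misfolded proteins. Secretory epithelia such as prostate luminal cells rely on both.

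Total gene counts ran from 9092597 to 37314039 per library, and both extremes were abl siControl libraries. The targeted genes fell in their own knockdowns: CREB1 to 34.3 CPM in LNCaP and 45.1 in abl, from siControl means of 83.2 and 79.2, and FOXA1 to 213 and 212 CPM from 747 and 530.2. CPM is a gene's reads scaled to the gene reads of its library, after TMM scaling. CREB1 was also lower under siFOXA1, by 0.44 ± 0.09 in LNCaP and 0.44 ± 0.09 in abl as log2 sizes (edgeR adjusted p = 0.00126 in LNCaP, 0.00114 in abl). The 9 listed prostate luminal markers summed to between 2401 and 4015 CPM in every library, and KLK3, the androgen-driven prostate antigen gene, was the 1 near absence, at 0.111 to 0.994 CPM in abl against 16.1 to 87.4 in LNCaP.

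Library 1 of siControl stood apart from library 2 in both lines by the blood cell genes CSF3R, S100A8 and S100A9. CSF3R, a granulocyte receptor gene, had 76 and 0 reads in the LNCaP control libraries 1 and 2 and 87 and 2 in those of abl. S100A8, a neutrophil gene, had 20 and 0 reads in each line's controls. S100A9, its partner, had 62 and 4 reads in LNCaP and 88 and 1 in abl, and also 59 to 96 in the 4 siFOXA1 libraries. Of the other listed blood genes, CD68 had 224 and 145 reads in the LNCaP controls and 512 and 140 in those of abl. LYZ had 106 and 43 in LNCaP and 144 and 28 in abl. PTPRC had 9 and 0 in LNCaP and 64 and 8 in abl, and HBB 0 to 1 in these libraries. The control libraries were also the pair of groups in which same-numbered libraries deviated together most (r = 0.231 across genes, which are not independent replicates). In a fit chosen after seeing the data, without library 1 of both siControl groups, 35 members were lower under siCREB1 and 37 under siFOXA1 in abl, 36 were higher in abl than in LNCaP, and 30 and 35 had a lower siCREB1 and siFOXA1 effect in abl. With all libraries these counts were 36, 38, 37, 35 and 36. In LNCaP the same fit left 9 lower and 8 higher under siCREB1 and 13 lower and 11 higher under siFOXA1. It leaves 1 library in each control group, which is assumed to vary like the other groups.

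Because the members differed by arm, the promoters were searched for elements named after the factors of each arm, and a few are printed before the values. RefSeq promoter sequences (GRCh38.p14, 250 bases before to 50 after the start) were matched for 36 members, 1 of them, FAM129A, under its newer symbol. NUPR1, GPT2, PYCR1 and EIF4EBP1 were not matched. The C/EBP-ATF element (TGATGNAA), the site of ATF4 with a C/EBP partner, stood in 5 of 36 members (ATF3, ASNS, CEBPG, JDP2 and HERPUD1) and in 4.46% of all 27305 genes with a promoter. The ER stress element (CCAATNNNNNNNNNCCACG), bound by ATF6 with NF-Y, stood in 5 of 36 (HSPA5, HSP90B1, PDIA6, CALR and CRELD2) and in 0.0916% of all genes. ER stress element II stood in 3 of 36 (HERPUD1, SDF2L1 and HYOU1) and in 0.0696% of all genes. The full cAMP response element (TGACGTCA) stood in 1 of 36, PPP1R15A, and in 2.25% of all genes. Its shorter core (TGACG), which also lies within the full element, stood in 16 of 36 and in 28.4% of all genes. Both strands were searched, and a match is a run of letters, not a bound site.

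The 200 bases before the start are given 5′ to 3′ on the gene's strand for 6 members, with matches to these elements other than the shorter core in capitals. ASNS and CEBPG carry the C/EBP-ATF element of the amino acid arm, PPP1R15A the full cAMP response element, HSPA5 the ER stress element, HERPUD1 both a C/EBP-ATF element and ER stress element II, and HYOU1 ER stress element II at 2 places.
ASNS, chr7:97872409-97872608, minus strand: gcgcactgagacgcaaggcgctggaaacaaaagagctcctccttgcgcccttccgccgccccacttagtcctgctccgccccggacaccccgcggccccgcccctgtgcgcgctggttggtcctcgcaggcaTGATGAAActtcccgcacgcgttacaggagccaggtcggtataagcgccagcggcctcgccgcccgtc
CEBPG, chr19:33373913-33374112, plus strand: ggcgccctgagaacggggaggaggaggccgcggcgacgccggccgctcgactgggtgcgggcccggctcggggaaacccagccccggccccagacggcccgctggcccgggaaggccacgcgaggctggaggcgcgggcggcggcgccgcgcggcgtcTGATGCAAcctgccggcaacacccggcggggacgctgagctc
PPP1R15A, chr19:48872221-48872420, plus strand: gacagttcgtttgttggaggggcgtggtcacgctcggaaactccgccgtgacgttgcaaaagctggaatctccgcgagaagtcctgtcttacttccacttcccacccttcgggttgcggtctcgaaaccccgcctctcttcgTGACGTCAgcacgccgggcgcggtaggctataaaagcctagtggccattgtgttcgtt
HSPA5, chr9:125241344-125241543, minus strand: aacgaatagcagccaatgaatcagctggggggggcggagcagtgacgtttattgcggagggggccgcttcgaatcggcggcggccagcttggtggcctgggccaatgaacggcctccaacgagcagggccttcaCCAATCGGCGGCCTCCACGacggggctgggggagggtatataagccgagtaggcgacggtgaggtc
HERPUD1, chr16:56931942-56932141, plus strand: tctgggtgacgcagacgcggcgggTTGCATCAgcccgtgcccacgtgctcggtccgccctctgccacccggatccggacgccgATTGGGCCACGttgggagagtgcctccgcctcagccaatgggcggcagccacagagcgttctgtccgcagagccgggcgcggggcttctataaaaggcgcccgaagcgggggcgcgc
HYOU1, chr11:119057206-119057405, minus strand: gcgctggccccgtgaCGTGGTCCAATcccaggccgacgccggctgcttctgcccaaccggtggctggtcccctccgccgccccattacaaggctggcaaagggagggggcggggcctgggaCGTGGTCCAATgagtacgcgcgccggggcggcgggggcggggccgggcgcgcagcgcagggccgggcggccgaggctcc

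Under siControl the 40 genes were on the whole more abundant in abl than in LNCaP, and in abl most of them dropped after either knockdown. In abl, siCREB1 lowered 36 of 40 and raised 2, the kinase genes EIF2AK3 and EIF2AK4, and siFOXA1 lowered 38 and raised 0. Of all 15550 genes tested, 23.7% were called lower and 27.5% higher under siCREB1 in abl, and 26.5% and 29.9% under siFOXA1. A call is an edgeR adjusted p (quasi-likelihood test, Benjamini-Hochberg over all tested genes) below 0.05. The members' median log2 change was -1.17 under siCREB1 and -1.36 under siFOXA1, against 0.03 and 0.03 over all tested genes. The 2 abl knockdown comparisons share their siControl libraries, and so does the comparison of the lines, so their results are given side by side and not as separate support.

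In LNCaP the same genes did not drop as a group. There siCREB1 lowered 11 and raised 9 of 40, beside 19.8% and 17.8% of all tested genes, and siFOXA1 lowered 17 and raised 11, beside 25.5% and 24.4%. Their medians were 0.05 and -0.11, against -0.00 and -0.01 over all genes. The arms split under siCREB1 in LNCaP, where the amino acid arm had 2 of 25 lower and 9 higher, and the folding arm 9 of 15 lower and 0 higher. The 9 higher were 4 transcription factors, 3 sensors and feedback genes and 2 brakes on growth and translation. Of the 7 amino acid and metabolic targets 0 were higher and 1 lower, and of the 3 other stress targets 0 and 1. Under siFOXA1 in LNCaP the amino acid arm had 9 lower and 9 higher, and the folding arm 8 lower and 2 higher. At an adjusted p below 0.01, siFOXA1 in LNCaP left 7 members higher. Leaving out 1 library at a time gave 10 to 14 lower there, with 10 without LNCaP siFOXA1 library 1.

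**Figure D1:**
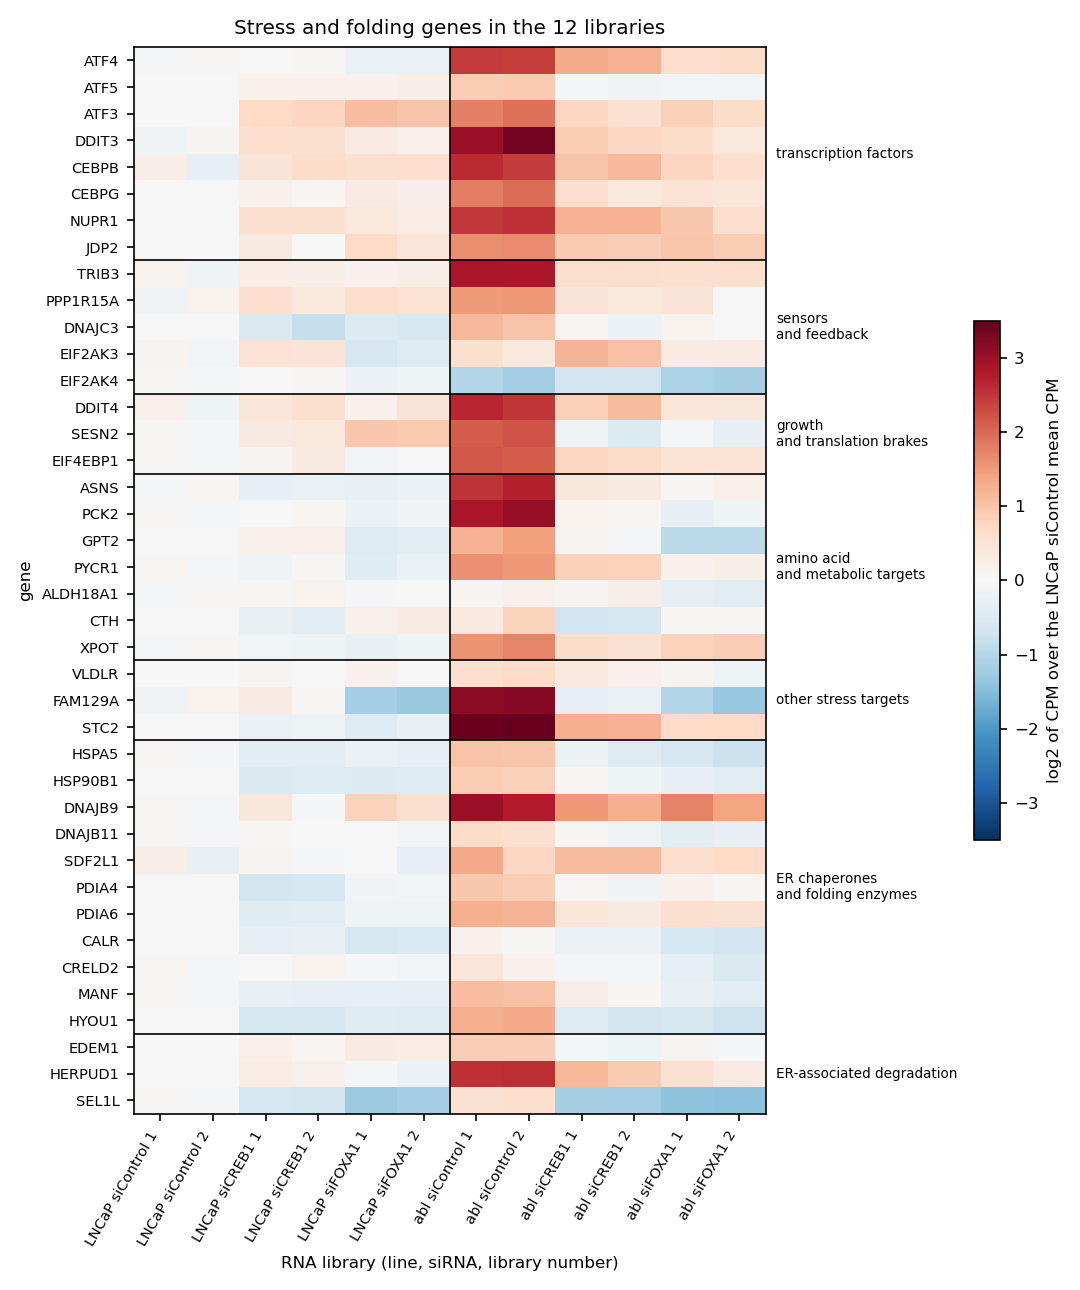
Levels of the 40 genes (rows, grouped by role) in the 12 RNA libraries (columns), as the log2 ratio of each library's CPM to the mean of the 2 LNCaP siControl libraries, red above and blue below. The 2 abl siControl columns are the darkest red over most rows, and STC2 is at 3.46 there in the fitted line difference.

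**Figure D2:**
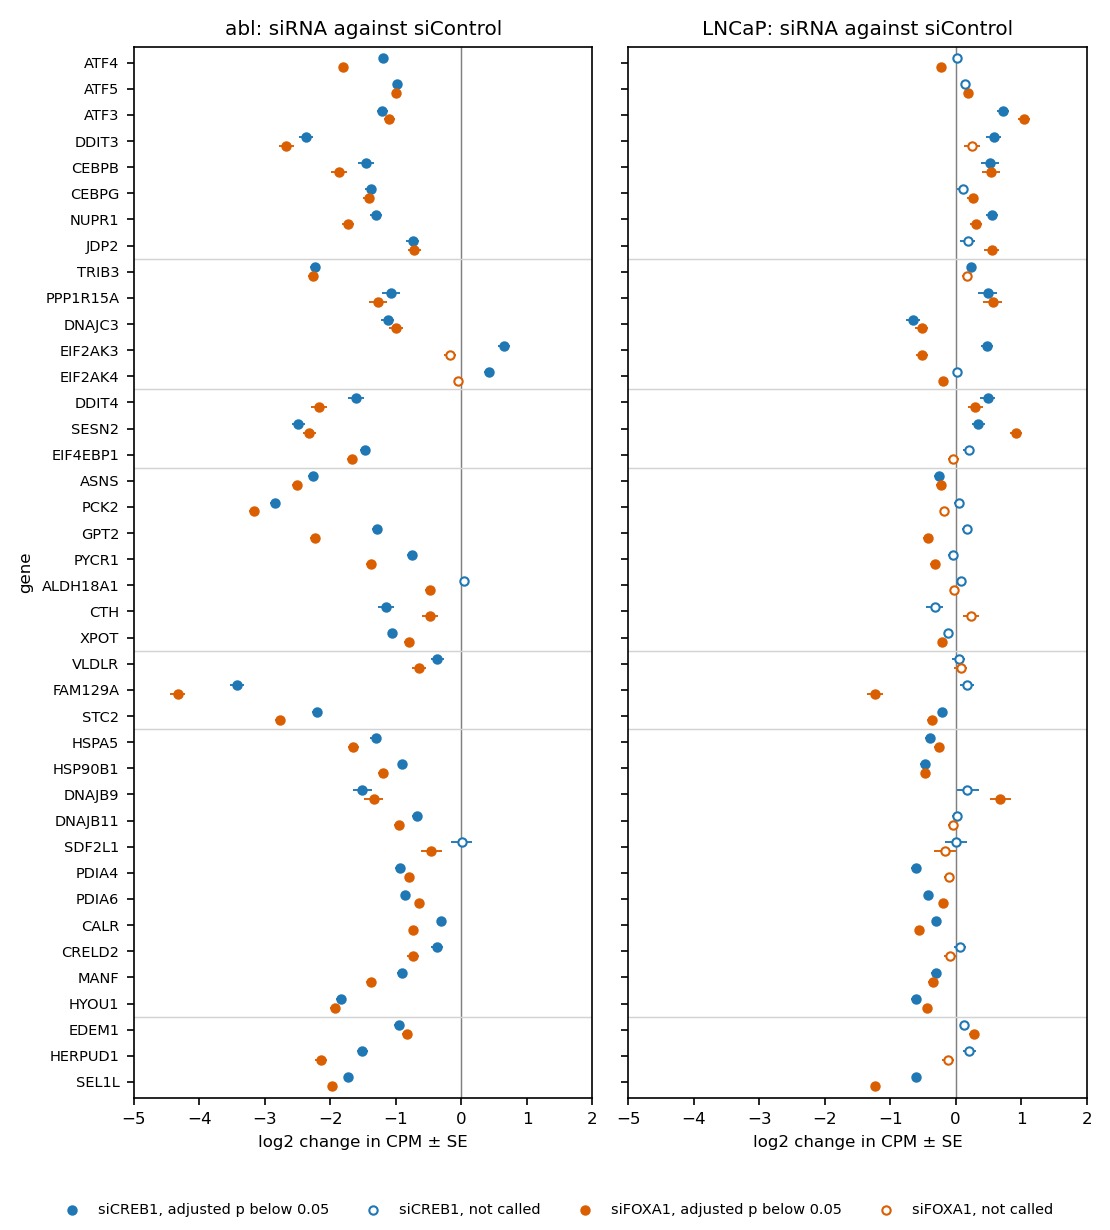
Log2 change in CPM against siControl (x axis) for each of the 40 genes (y axis), in abl on the left and LNCaP on the right, with bars of 1 SE from the edgeR fit and filled points for adjusted p below 0.05. In abl the points reach -4.33 (FAM129A under siFOXA1), and in LNCaP they lie between -1.23 and 1.05.

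All 8 transcription factors of the response fell in abl under both knockdowns, with a median of -1.26 under siCREB1 and -1.58 under siFOXA1. The weakest of these calls was JDP2's, at edgeR adjusted p = 3.65e-05 and 3.95e-05. In LNCaP, 0 fell and 4 rose under siCREB1, and 1 fell and 6 rose under siFOXA1. Every value below is the CPM of library 1 and then library 2 of a group.

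ATF4, whose protein carries the stress signal into transcription, measured 237 and 249 CPM with siControl, 243 and 250.5 with siCREB1 and 207 and 208 with siFOXA1 in LNCaP. In abl ATF4 measured 1337 and 1305 CPM with siControl, 597 and 561 with siCREB1 and 373 and 382 with siFOXA1. The abl siControl pair was the highest of the 12 libraries, and the abl knockdown pairs stayed above every LNCaP library. ATF4 mRNA fell to 43.8% of its abl control level under siCREB1 (log2 change -1.19 ± 0.06, SE) and to 28.6% under siFOXA1 (-1.81 ± 0.06). In LNCaP it changed by 0.02 ± 0.06 under siCREB1, which was not called, and fell by 0.23 ± 0.06 under siFOXA1 (edgeR adjusted p = 0.00493). ATF4 under siFOXA1 in LNCaP lost its edgeR call without siFOXA1 library 1 (adjusted p = 0.0571).

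DDIT3, the pro-apoptotic factor CHOP, measured 31.5 and 36.5 CPM with siControl, 50.7 and 50.2 with siCREB1 and 41.8 and 38.4 with siFOXA1 in LNCaP. DDIT3 in abl measured 275 and 344 CPM with siControl, 62.8 and 56.2 with siCREB1 and 52.8 and 43.8 with siFOXA1. The abl siControl pair was far above the rest, and the abl knockdown libraries came down to around the LNCaP knockdown libraries. The fall was to 19.2% of control under siCREB1 (-2.37 ± 0.11) and to 15.6% under siFOXA1 (-2.68 ± 0.12). In LNCaP, DDIT3 rose by 0.58 ± 0.12 under siCREB1 and its change of 0.25 ± 0.12 under siFOXA1 was not called (edgeR adjusted p = 0.00177 and 0.105).

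ATF3, an early stress-induced factor of the same family, measured 24.99 and 25.6 CPM with siControl, 41.3 and 42.3 with siCREB1 and 53.5 and 50.9 with siFOXA1 in LNCaP. ATF3 in abl measured 85.9 and 96.5 CPM with siControl, 41.9 and 36.6 with siCREB1 and 44.9 and 39.6 with siFOXA1. Both LNCaP knockdown pairs stood above their control, and both abl pairs stood below theirs, without overlap. ATF3 rose in LNCaP by 0.73 ± 0.09 and 1.05 ± 0.09 and fell in abl by 1.21 ± 0.09 and 1.10 ± 0.09, for siCREB1 and siFOXA1. All of these passed, the weakest at edgeR adjusted p = 3.97e-05.

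ATF5, a factor translated like ATF4 under stress, measured 44.3 and 43.2 CPM with siControl, 48.3 and 48.5 with siCREB1 and 48.2 and 51.4 with siFOXA1 in LNCaP. ATF5 in abl measured 81.3 and 82.6 CPM with siControl, 42.3 and 40.3 with siCREB1 and 41.04 and 40.9 with siFOXA1. The abl control pair was the highest of the 12 libraries, and the abl knockdowns lay just below the LNCaP controls. ATF5 fell in abl by 0.99 ± 0.06 and 1.00 ± 0.06, and rose in LNCaP by 0.19 ± 0.06 under siFOXA1 (edgeR adjusted p = 0.0242). ATF5 under siCREB1 in LNCaP gained an edgeR call with library totals as the only scaling (adjusted p = 0.0297). ATF5 under siFOXA1 in LNCaP lost its edgeR call without siControl library 2 (adjusted p = 0.0992), without siFOXA1 library 2 (adjusted p = 0.119), without the low-count filter (adjusted p = 0.062), when only the groups compared were fitted (adjusted p = 0.0601) and with DESeq2 (adjusted p = 0.0821).

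CEBPB and CEBPG encode bZIP partners of ATF4. CEBPB measured 16.1 and 11.3 CPM with siControl, 18.8 and 21.5 with siCREB1 and 20.1 and 20.5 with siFOXA1 in LNCaP. In abl CEBPB measured 83.7 and 74.2 CPM with siControl, 27.4 and 30.3 with siCREB1 and 22.9 and 20.7 with siFOXA1. CEBPB fell in abl by 1.46 ± 0.12 and 1.86 ± 0.12 under siCREB1 and siFOXA1 and rose in LNCaP by 0.52 ± 0.14 and 0.53 ± 0.14, although its LNCaP control libraries differed from each other more than its knockdown libraries did. CEBPB under siCREB1 in LNCaP lost its edgeR call without siControl library 2 (adjusted p = 0.0591), without siCREB1 library 2 (adjusted p = 0.0687) and when only the groups compared were fitted (adjusted p = 0.0521).

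CEBPG measured 46.7 and 45.2 CPM with siControl, 51.3 and 48.1 with siCREB1 and 55.8 and 54.2 with siFOXA1 in LNCaP. In abl CEBPG measured 159.5 and 179 CPM with siControl, 69.8 and 59.4 with siCREB1 and 64.1 and 62.1 with siFOXA1. CEBPG fell in abl by 1.38 ± 0.08 and 1.42 ± 0.08, its knockdown libraries lying well below the control pair but above LNCaP. In LNCaP the change was 0.11 ± 0.08, not called, under siCREB1 and a rise of 0.26 ± 0.08 under siFOXA1 (edgeR adjusted p = 0.323 and 0.0198). CEBPG under siFOXA1 in LNCaP lost its edgeR call without siControl library 2 (adjusted p = 0.072) and without siFOXA1 library 1 (adjusted p = 0.072).

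NUPR1, a small stress-induced chromatin protein, measured 138 and 137 CPM with siControl, 202 and 203 with siCREB1 and 179 and 164 with siFOXA1 in LNCaP. NUPR1 in abl measured 769 and 813 CPM with siControl, 319 and 322 with siCREB1 and 265 and 209.6 with siFOXA1. NUPR1 was thus lowest in the LNCaP control and highest in the abl control, with the 8 knockdown libraries between them. It rose in LNCaP by 0.56 ± 0.09 and 0.31 ± 0.09 and fell in abl by 1.30 ± 0.09 and 1.74 ± 0.09. NUPR1 under siFOXA1 in LNCaP lost its edgeR call without siFOXA1 library 1 (adjusted p = 0.0765).

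JDP2, a repressor related to ATF3, measured 11.9 and 12.2 CPM with siControl, 15.1 and 12.3 with siCREB1 and 19.1 and 16.3 with siFOXA1 in LNCaP. JDP2 in abl measured 37.6 and 37.9 CPM with siControl, 22.9 and 22.04 with siCREB1 and 23.5 and 22.4 with siFOXA1. It followed NUPR1's order, with control libraries at both ends. JDP2 fell in abl by 0.75 ± 0.10 and 0.72 ± 0.10, rose in LNCaP by 0.55 ± 0.11 under siFOXA1, and its 0.19 ± 0.11 under siCREB1 there was not called. JDP2 under siCREB1 in LNCaP gained an edgeR call without siCREB1 library 2 (adjusted p = 0.0493).

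**Figure D3:**
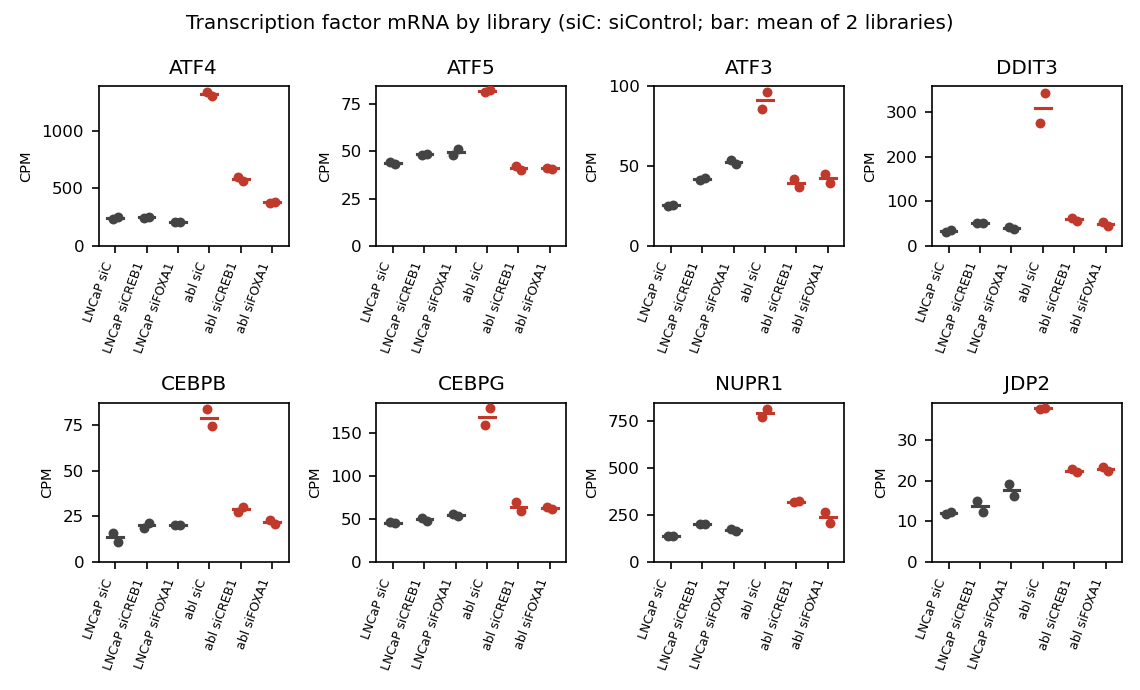
CPM (y axis, from 0) of the 8 transcription factors in each library (points), by line and siRNA (x axis), with a bar at the mean of the 2 libraries. In each panel the abl siControl pair is the highest, as for ATF4 at 1337 and 1305 CPM.

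Of the 5 sensors and feedback genes, the 3 feedback genes fell in abl under both knockdowns, and the 2 kinase genes did not. The kinases EIF2AK3 (PERK) and EIF2AK4 (GCN2) start the response. EIF2AK3 measured 53.7 and 47.2 CPM with siControl, 71.7 and 69.2 with siCREB1 and 33.6 and 37.2 with siFOXA1 in LNCaP. In abl EIF2AK3 measured 74.5 and 63.5 CPM with siControl, 116 and 104 with siCREB1 and 61.7 and 61.8 with siFOXA1. In both lines its siCREB1 libraries were the highest. EIF2AK3 rose under siCREB1 by 0.65 ± 0.09 in abl and 0.48 ± 0.09 in LNCaP, fell under siFOXA1 in LNCaP by 0.52 ± 0.09, and changed by -0.18 ± 0.09 under siFOXA1 in abl, which was not called. The edgeR adjusted p-values were 3.28e-05, 0.000985, 0.000409 and 0.113. EIF2AK3 under siFOXA1 in abl gained an edgeR call without siControl library 2 (adjusted p = 0.0318).

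EIF2AK4 was the only member lower in abl than in LNCaP under siControl by the test. It measured 159 and 148 CPM with siControl, 154 and 158 with siCREB1 and 132 and 138 with siFOXA1 in LNCaP. EIF2AK4 in abl measured 75.98 and 67.8 CPM with siControl, 96.6 and 96.9 with siCREB1 and 71.3 and 68.7 with siFOXA1. All 6 abl libraries lay below all 6 LNCaP libraries. EIF2AK4 rose in abl by 0.42 ± 0.07 under siCREB1 and fell in LNCaP by 0.19 ± 0.07 under siFOXA1 (edgeR adjusted p = 0.000164 and 0.0274). EIF2AK4 under siFOXA1 in LNCaP lost its edgeR call without siControl library 1 (adjusted p = 0.287), without siFOXA1 library 1 (adjusted p = 0.233), without siFOXA1 library 2 (adjusted p = 0.0834), when only the groups compared were fitted (adjusted p = 0.0725), with DESeq2 (adjusted p = 0.0521) and without library 1 of both siControl groups (adjusted p = 0.224).

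TRIB3, a pseudokinase induced by ATF4 and CHOP that damps them, measured 70.5 and 58.6 CPM with siControl, 77.4 and 75.96 with siCREB1 and 71.1 and 75.03 with siFOXA1 in LNCaP. TRIB3 in abl measured 470.0 and 461 CPM with siControl, 99.1 and 98.8 with siCREB1 and 96.6 and 97.6 with siFOXA1. The abl knockdown libraries all lay within a narrow band, far below the control pair and above LNCaP. TRIB3 fell in abl to 21.3% and 20.8% of control (-2.23 ± 0.07 and -2.26 ± 0.08), and in LNCaP rose by 0.24 ± 0.08 under siCREB1 (edgeR adjusted p = 0.0219). TRIB3 under siCREB1 in LNCaP lost its edgeR call without siControl library 2 (adjusted p = 0.227), without siCREB1 library 1 (adjusted p = 0.0638) and when only the groups compared were fitted (adjusted p = 0.0942). TRIB3 under siFOXA1 in LNCaP gained an edgeR call, as a rise, with library totals as the only scaling (adjusted p = 0.0243). The rise was 0.34 without siControl library 1 and 0.34 without library 1 of both siControl groups, each leaving 1 control library.

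PPP1R15A (GADD34), the phosphatase subunit that reverses eIF2 phosphorylation, measured 7.80 and 9.16 CPM with siControl, 12.7 and 10.9 with siCREB1 and 13.03 and 11.8 with siFOXA1 in LNCaP. PPP1R15A in abl measured 23.9 and 24.2 CPM with siControl, 11.7 and 11.02 with siCREB1 and 11.5 and 8.38 with siFOXA1. The abl control pair was the highest, and the abl knockdown libraries overlapped the LNCaP ones. The gene, with the full cAMP response element printed above, fell in abl by 1.08 ± 0.14 and 1.28 ± 0.14 and rose in LNCaP by 0.49 ± 0.15 and 0.57 ± 0.15 under siCREB1 and siFOXA1. PPP1R15A under siCREB1 in LNCaP lost its edgeR call without siControl library 1 (adjusted p = 0.129), without siCREB1 library 1 (adjusted p = 0.111) and without library 1 of both siControl groups (adjusted p = 0.143). PPP1R15A under siFOXA1 in LNCaP lost its edgeR call without siControl library 1 (adjusted p = 0.0564) and without library 1 of both siControl groups (adjusted p = 0.0672).

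DNAJC3, an ER co-chaperone that inhibits PERK, measured 94.9 and 96.2 CPM with siControl, 67.4 and 54.2 with siCREB1 and 68.1 and 65.1 with siFOXA1 in LNCaP. DNAJC3 in abl measured 208 and 190.3 CPM with siControl, 99.96 and 83.4 with siCREB1 and 105 and 95.5 with siFOXA1. Unlike the other feedback genes it was below control after knockdown in both lines. DNAJC3 fell by 1.13 ± 0.10 and 1.00 ± 0.10 in abl and by 0.65 ± 0.10 and 0.52 ± 0.10 in LNCaP, the weakest call being siFOXA1 in LNCaP (edgeR adjusted p = 0.000888).

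The 3 brakes on growth and translation, which slow mTOR signalling or cap-dependent translation, all fell in abl under both knockdowns, and of them 0 fell and 2 rose in LNCaP under each. DDIT4 (REDD1), an inhibitor of mTORC1, measured 148 and 119.8 CPM with siControl, 179 and 198 with siCREB1 and 149 and 182 with siFOXA1 in LNCaP. In abl DDIT4 measured 846 and 765 CPM with siControl, 240.1 and 288 with siCREB1 and 179 and 178 with siFOXA1. Its abl control pair was the highest, and the siFOXA1 pair in abl came down into the LNCaP range. DDIT4 fell in abl to 32.8% and 22.1% of control and rose in LNCaP by 0.49 ± 0.12 and 0.30 ± 0.12 (edgeR adjusted p = 0.00482 and 0.0461). DDIT4 under siFOXA1 in LNCaP lost its edgeR call without siControl library 2 (adjusted p = 0.318), without siFOXA1 library 2 (adjusted p = 0.327) and when only the groups compared were fitted (adjusted p = 0.0898).

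SESN2, a sestrin that inhibits mTORC1 when leucine is scarce, measured 50.8 and 47.1 CPM with siControl, 61.1 and 63.6 with siCREB1 and 94.5 and 91.7 with siFOXA1 in LNCaP. SESN2 in abl measured 214 and 224 CPM with siControl, 42.995 and 34.96 with siCREB1 and 47.6 and 39.8 with siFOXA1. The order of the lines turned over: abl was the higher line under siControl and the lower one under either knockdown, with no overlap of the pairs. SESN2 fell in abl to 17.8% and 19.97% of control and rose in LNCaP by 0.35 ± 0.10 and 0.92 ± 0.10. SESN2 under siCREB1 in LNCaP lost its edgeR call without siControl library 2 (adjusted p = 0.0607) and without siCREB1 library 2 (adjusted p = 0.0619).

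EIF4EBP1, which holds back cap-dependent translation, measured 37.4 and 35.5 CPM with siControl, 38.7 and 45.3 with siCREB1 and 34.2 and 37.1 with siFOXA1 in LNCaP. EIF4EBP1 in abl measured 164 and 159 CPM with siControl, 59.8 and 57.3 with siCREB1 and 50.7 and 51.2 with siFOXA1. The abl knockdown pairs fell to 36.2% and 31.5% of their control and stayed above every LNCaP library. Neither LNCaP change was called (0.20 ± 0.08 and -0.04 ± 0.08). EIF4EBP1 under siCREB1 in LNCaP gained an edgeR call without siCREB1 library 1 (adjusted p = 0.00955), with RLE size factors (adjusted p = 0.0449), with upper-quartile scaling (adjusted p = 0.0488) and with library totals as the only scaling (adjusted p = 0.0195).

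Among the 7 amino acid and metabolic targets, 6 fell under siCREB1 and 7 under siFOXA1 in abl, and 1 and 4 fell in LNCaP, with none called higher there by edgeR. ASNS, the asparagine synthetase and the standard ATF4 target, measured 76.6 and 83.5 CPM with siControl, 65.5 and 68.3 with siCREB1 and 67.1 and 69.9 with siFOXA1 in LNCaP. In abl ASNS measured 463 and 529.6 CPM with siControl, 106 and 98.9 with siCREB1 and 83.7 and 89.9 with siFOXA1. The abl control pair was far above the rest and the siFOXA1 pair came close to the LNCaP controls. ASNS fell to 20.7% and 17.5% of control in abl, and by 0.26 ± 0.08 and 0.22 ± 0.08 in LNCaP (edgeR adjusted p = 0.0195 and 0.0304). ASNS under siCREB1 in LNCaP lost its edgeR call without siControl library 2 (adjusted p = 0.117), without siCREB1 library 1 (adjusted p = 0.148), without siCREB1 library 2 (adjusted p = 0.0594) and with library totals as the only scaling (adjusted p = 0.0563). ASNS under siFOXA1 in LNCaP lost its edgeR call without siControl library 2 (adjusted p = 0.168), without siFOXA1 library 1 (adjusted p = 0.205), without siFOXA1 library 2 (adjusted p = 0.0864) and with library totals as the only scaling (adjusted p = 0.0783).

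PCK2, the mitochondrial form of phosphoenolpyruvate carboxykinase, measured 115 and 109.8 CPM with siControl, 114 and 118 with siCREB1 and 97.3 and 102 with siFOXA1 in LNCaP. PCK2 in abl measured 819.6 and 925 CPM with siControl, 122 and 119 with siCREB1 and 92.7 and 101 with siFOXA1. Outside the abl controls all 10 libraries lay between 92.7 and 122 CPM. PCK2 fell to 13.8% and 11.1% of control in abl (-2.85 ± 0.07 and -3.17 ± 0.08), and neither LNCaP change was called (0.05 ± 0.07 and -0.17 ± 0.07).

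GPT2, the mitochondrial alanine aminotransferase, measured 90.4 and 87.7 CPM with siControl, 99.7 and 101 with siCREB1 and 65.4 and 67.5 with siFOXA1 in LNCaP. GPT2 in abl measured 208 and 239 CPM with siControl, 95.4 and 86.5 with siCREB1 and 46.8 and 47.5 with siFOXA1. The siFOXA1 pairs were the lowest in both lines, and in abl they lay below every LNCaP library. GPT2 fell in abl by 1.29 ± 0.07 under siCREB1 and 2.24 ± 0.08 under siFOXA1, and in LNCaP by 0.42 ± 0.07 under siFOXA1, while its 0.17 ± 0.07 under siCREB1 in LNCaP was not called. GPT2 under siCREB1 in LNCaP gained an edgeR call with library totals as the only scaling (adjusted p = 0.0351).

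PYCR1, the last enzyme of proline synthesis in mitochondria, measured 157 and 142 CPM with siControl, 138 and 154 with siCREB1 and 113 and 128 with siFOXA1 in LNCaP. PYCR1 in abl measured 455 and 429 CPM with siControl, 265 and 259.8 with siCREB1 and 167 and 172 with siFOXA1. All 6 abl libraries stood above all 6 LNCaP libraries. PYCR1 fell in abl by 0.75 ± 0.08 and 1.38 ± 0.08 and in LNCaP by 0.32 ± 0.08 under siFOXA1 (edgeR adjusted p = 0.00399). PYCR1 under siFOXA1 in LNCaP lost its edgeR call without siControl library 1 (adjusted p = 0.0709), without siFOXA1 library 1 (adjusted p = 0.097) and without library 1 of both siControl groups (adjusted p = 0.0705).

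The other 3 targets had smaller largest changes over the 4 knockdown comparisons than those 4, although CTH and XPOT fell more than PYCR1 under siCREB1 in abl. ALDH18A1, the first enzyme of proline synthesis, ran from 106 to 161 CPM over the 12 libraries and was called only under siFOXA1 in abl, where it fell by 0.49 ± 0.07. CTH, which makes cysteine, ran from 9.96 to 26.97 CPM and fell in abl by 1.15 ± 0.13 under siCREB1 and 0.48 ± 0.12 under siFOXA1. XPOT, which exports transfer RNA from the nucleus, ran from 214 to 827 CPM, fell in abl by 1.05 ± 0.07 and 0.80 ± 0.07, and in LNCaP by 0.21 ± 0.07 under siFOXA1 (edgeR adjusted p = 0.022). CTH under siCREB1 in LNCaP gained an edgeR call without the low-count filter (adjusted p = 0.0412). XPOT under siFOXA1 in LNCaP lost its edgeR call without siControl library 2 (adjusted p = 0.125), without siFOXA1 library 1 (adjusted p = 0.223) and with library totals as the only scaling (adjusted p = 0.0636).

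All 3 other stress targets fell in abl under both knockdowns. FAM129A (NIBAN1), a stress-induced protein that affects eIF2 phosphorylation, showed the largest fall of the 40. It measured 22.7 and 26.97 CPM with siControl, 30.3 and 25.4 with siCREB1 and 10.9 and 10.02 with siFOXA1 in LNCaP. FAM129A in abl measured 218 and 226 CPM with siControl, 20.3 and 21.03 with siCREB1 and 12.1 and 9.98 with siFOXA1. The siFOXA1 pairs of the lines overlapped, and the abl siCREB1 pair lay below every LNCaP siControl library. FAM129A fell to 9.29% of control under siCREB1 (-3.43 ± 0.10) and to 4.96% under siFOXA1 (-4.33 ± 0.11) in abl. In LNCaP it fell by 1.23 ± 0.12 under siFOXA1 (edgeR adjusted p = 1.51e-06), and 0.18 ± 0.11 under siCREB1 was not called.

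STC2, a secreted glycoprotein induced by ATF4, measured 47.1 and 47.5 CPM with siControl, 40.4 and 41.7 with siCREB1 and 34.4 and 39.4 with siFOXA1 in LNCaP. STC2 in abl measured 507 and 535 CPM with siControl, 115 and 110.1 with siCREB1 and 75.6 and 77.2 with siFOXA1. Every abl library was above every LNCaP library. STC2 fell in abl to 21.6% and 14.7% of control and in LNCaP by 0.21 ± 0.07 and 0.36 ± 0.07 (edgeR adjusted p = 0.0374 and 0.00105). STC2 under siCREB1 in LNCaP lost its edgeR call without siControl library 1 (adjusted p = 0.143), without siControl library 2 (adjusted p = 0.102), without siCREB1 library 1 (adjusted p = 0.219), without siCREB1 library 2 (adjusted p = 0.0993), with RLE size factors (adjusted p = 0.0594), with library totals as the only scaling (adjusted p = 0.096), when only the groups compared were fitted (adjusted p = 0.0824), with DESeq2 (adjusted p = 0.0904) and without library 1 of both siControl groups (adjusted p = 0.136).

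VLDLR, a lipoprotein receptor whose gene ATF4 can induce, measured 27.1 and 26.9 CPM with siControl, 28.8 and 26.9 with siCREB1 and 30.2 and 26.8 with siFOXA1 in LNCaP. VLDLR in abl measured 40.4 and 42.7 CPM with siControl, 34.3 and 29.9 with siCREB1 and 28.9 and 24.02 with siFOXA1. The LNCaP groups overlapped. VLDLR fell in abl by 0.37 ± 0.10 and 0.65 ± 0.10 (edgeR adjusted p = 0.0076 and 0.000103) and was not called in LNCaP (0.04 ± 0.10 and 0.08 ± 0.10). VLDLR under siCREB1 in abl lost its edgeR call without siCREB1 library 2 (adjusted p = 0.105).

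Of the 11 ER chaperones and folding enzymes, 10 fell under siCREB1 and 11 under siFOXA1 in abl, with medians of -0.90 and -0.95. In LNCaP 7 fell and 0 rose under siCREB1, and 6 fell and 1 rose under siFOXA1. HSPA5 (BiP), the main ER chaperone, measured 879 and 825 CPM with siControl, 647 and 651 with siCREB1 and 726 and 699.7 with siFOXA1 in LNCaP. In abl HSPA5 measured 1698 and 1675 CPM with siControl, 736 and 626 with siCREB1 and 571 and 504 with siFOXA1. The abl control pair was the highest and the abl siFOXA1 pair the lowest of the 12 libraries. HSPA5, whose promoter holds the ER stress element, fell in abl to 40.4% and 31.9% of control and in LNCaP by 0.39 ± 0.08 and 0.26 ± 0.08 (edgeR adjusted p = 0.00174 and 0.0159). HSPA5 under siFOXA1 in LNCaP lost its edgeR call without siControl library 1 (adjusted p = 0.139), without siFOXA1 library 1 (adjusted p = 0.0694), without siFOXA1 library 2 (adjusted p = 0.134) and without library 1 of both siControl groups (adjusted p = 0.155).

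HYOU1, a large ER chaperone that works with BiP, measured 428 and 417 CPM with siControl, 274 and 282 with siCREB1 and 316 and 311 with siFOXA1 in LNCaP. HYOU1 in abl measured 1015 and 1049 CPM with siControl, 311 and 269 with siCREB1 and 287 and 256 with siFOXA1. All 4 knockdown pairs lay below the controls of their line, and the abl pairs reached the LNCaP knockdown range or below. HYOU1 fell to 28.1% and 26.3% of control in abl and by 0.60 ± 0.07 and 0.43 ± 0.07 in LNCaP (edgeR adjusted p = 3.73e-05 and 0.000285).

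DNAJB9, a BiP co-chaperone that restrains IRE1, measured 16.7 and 15.95 CPM with siControl, 21.6 and 15.5 with siCREB1 and 28.8 and 23.9 with siFOXA1 in LNCaP. DNAJB9 in abl measured 130.2 and 113 CPM with siControl, 46.96 and 38.7 with siCREB1 and 53.9 and 42.6 with siFOXA1. Every abl library was above every LNCaP library. DNAJB9 fell in abl by 1.51 ± 0.14 and 1.34 ± 0.14 and rose in LNCaP by 0.68 ± 0.17 under siFOXA1 (edgeR adjusted p = 0.00365). MANF, a secreted ER stress protein, measured 56.4 and 54.2 CPM with siControl, 45.8 and 43.9 with siCREB1 and 43.5 and 43.9 with siFOXA1 in LNCaP. MANF in abl measured 117 and 113 CPM with siControl, 64.4 and 57.9 with siCREB1 and 46.5 and 41.6 with siFOXA1. MANF fell by 0.91 ± 0.07 and 1.38 ± 0.07 in abl and by 0.30 ± 0.07 and 0.34 ± 0.07 in LNCaP, the abl siFOXA1 pair coming down to the LNCaP knockdown level. MANF under siCREB1 in LNCaP lost its edgeR call without siControl library 1 (adjusted p = 0.0583), without siCREB1 library 2 (adjusted p = 0.0626) and without library 1 of both siControl groups (adjusted p = 0.0607).

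The other 7 chaperones and folding enzymes are given by their changes. The ER chaperone HSP90B1 (GRP94) fell by 0.90 ± 0.07 and 1.20 ± 0.07 in abl under siCREB1 and siFOXA1 and by 0.47 ± 0.07 and 0.46 ± 0.07 in LNCaP. The disulfide isomerase gene PDIA4 fell in abl by 0.94 ± 0.07 and 0.80 ± 0.07, and PDIA6 by 0.86 ± 0.06 and 0.65 ± 0.06. In LNCaP PDIA4 fell by 0.61 ± 0.07 under siCREB1 and PDIA6 by 0.42 ± 0.06 and 0.19 ± 0.06. CALR (calreticulin), a lectin chaperone that stores calcium, fell under all 4 conditions, by 0.31 ± 0.06 and 0.74 ± 0.06 in abl and 0.30 ± 0.06 and 0.56 ± 0.06 in LNCaP. These 4 genes thus fell in both lines, with the siFOXA1 change of PDIA4 in LNCaP (-0.10 ± 0.07) not called. PDIA6 under siFOXA1 in LNCaP lost its edgeR call without siControl library 1 (adjusted p = 0.0639), without siControl library 2 (adjusted p = 0.0905), without siFOXA1 library 1 (adjusted p = 0.124), without siFOXA1 library 2 (adjusted p = 0.115) and without library 1 of both siControl groups (adjusted p = 0.0637).

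DNAJB11, a BiP co-chaperone, fell in abl by 0.68 ± 0.08 and 0.95 ± 0.08 and was not called in LNCaP (0.02 ± 0.08 and -0.04 ± 0.08). CRELD2, a secreted ER stress protein, fell in abl by 0.37 ± 0.09 and 0.73 ± 0.09 and was not called in LNCaP. SDF2L1, part of a chaperone complex with BiP, measured 40.4 and 26.7 CPM with siControl, 34.97 and 35.002 with siCREB1 and 24.8 and 25.9 with siFOXA1 in abl. Its abl control libraries were far apart and spanned the siCREB1 pair. SDF2L1 changed by 0.00 ± 0.16 under siCREB1, which was not called, and fell by 0.46 ± 0.16 under siFOXA1 (edgeR adjusted p = 0.0265). Without library 1 of both siControl groups, which leaves 1 control library, SDF2L1 was higher under siCREB1 in abl, by 0.40. SDF2L1 under siFOXA1 in abl lost its edgeR call without siControl library 1 (adjusted p = 0.784), without siFOXA1 library 1 (adjusted p = 0.115), without siFOXA1 library 2 (adjusted p = 0.0786) and without library 1 of both siControl groups (adjusted p = 0.706). CRELD2 under siCREB1 in abl lost its edgeR call without siControl library 1 (adjusted p = 0.151) and without library 1 of both siControl groups (adjusted p = 0.121).

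The 3 genes of ER-associated degradation, which returns misfolded proteins to the cytosol, all fell in abl under both knockdowns. HERPUD1, an adaptor of the retrotranslocation complex, measured 91.3 and 88.03 CPM with siControl, 107 and 101 with siCREB1 and 86.7 and 78.5 with siFOXA1 in LNCaP. In abl HERPUD1 measured 528 and 534 CPM with siControl, 202 and 170.4 with siCREB1 and 130.0 and 110.0 with siFOXA1. All abl libraries stayed above all LNCaP libraries. HERPUD1, whose promoter holds both the C/EBP-ATF element and ER stress element II, fell to 35.1% and 22.6% of control in abl and was not called in LNCaP (0.21 ± 0.09 and -0.12 ± 0.09). HERPUD1 under siCREB1 in LNCaP gained an edgeR call with library totals as the only scaling (adjusted p = 0.0381).

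SEL1L, the scaffold of the HRD1 ubiquitin ligase, measured 305 and 283 CPM with siControl, 195 and 189 with siCREB1 and 122 and 129 with siFOXA1 in LNCaP. SEL1L in abl measured 423 and 439 CPM with siControl, 131 and 128 with siCREB1 and 112 and 108 with siFOXA1. Within each line the order was siControl, siCREB1, siFOXA1 from high to low, without overlap. SEL1L fell by 1.73 ± 0.06 and 1.97 ± 0.06 in abl and by 0.61 ± 0.06 and 1.23 ± 0.06 in LNCaP, where -1.23 under siFOXA1 stood beside FAM129A's -1.23 as the only members to fall by over 1 on the log2 scale.

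EDEM1, a lectin that marks misfolded glycoproteins, measured 89.9 and 90.2 CPM with siControl, 103 and 94.9 with siCREB1 and 109 and 109 with siFOXA1 in LNCaP. EDEM1 in abl measured 163 and 164 CPM with siControl, 88.2 and 80.01 with siCREB1 and 95.4 and 87.9 with siFOXA1. It was above control in LNCaP and below control in abl under both siRNAs. EDEM1 fell in abl by 0.96 ± 0.07 and 0.84 ± 0.07 and rose in LNCaP by 0.28 ± 0.07 under siFOXA1 (edgeR adjusted p = 0.00386), with 0.13 ± 0.07 under siCREB1 not called.

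Under siControl, 37 of 40 genes were higher in abl than in LNCaP and 1, EIF2AK4, was lower, beside 30.5% and 33.1% of all tested genes. The members' median line difference was 1.42 on the log2 scale, against -0.02 over all genes. It was 1.87 in the amino acid arm and 0.99 in the folding arm. The largest were STC2 at 11.01-fold, DDIT3 at 9.11-fold, FAM129A at 8.95-fold, PCK2 at 7.76-fold and DNAJB9 at 7.44-fold. The other 2 genes were not called, the chaperone CALR at 0.10 ± 0.06 and the proline enzyme ALDH18A1 at 0.12 ± 0.07. Leaving out 1 library at a time left 36 to 37 members higher, the call of CRELD2 being lost without LNCaP siControl library 2 (edgeR adjusted p = 0.0614) or abl siControl library 1 (0.192).

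The test of the difference between the lines in each knockdown effect gave a lower value in abl for 35 of 40 members under siCREB1 and for 36 under siFOXA1. It gave a higher value for 1, EIF2AK4, and for 0. Of all tested genes, 10.8% were called lower and 14.8% higher for siCREB1, and 14.7% and 17.9% for siFOXA1. The median difference was -1.13 for siCREB1 and -1.33 for siFOXA1, against 0.05 and 0.05 over all genes. The largest were FAM129A (-3.60 ± 0.15), DDIT3 (-2.95 ± 0.16) and PCK2 (-2.90 ± 0.10) for siCREB1, and SESN2 (-3.25 ± 0.14), FAM129A (-3.10 ± 0.16) and PCK2 (-2.99 ± 0.10) for siFOXA1. CALR and SDF2L1 were called in neither, CALR at -0.01 ± 0.09 and -0.19 ± 0.09 and SDF2L1 at -0.00 ± 0.23 and -0.30 ± 0.24. EIF2AK3 was not called in either (0.18 ± 0.13 and 0.34 ± 0.13), and ALDH18A1 was called for siFOXA1 alone (-0.46 ± 0.09). EIF2AK4 had 0.14 ± 0.09 for siFOXA1, not called. Leaving out 1 library at a time gave 31 to 35 lower for siCREB1 and 35 to 36 for siFOXA1, where EIF2AK3 became 1 member higher without LNCaP siControl library 2 (edgeR adjusted p = 0.0264) or abl siControl library 1 (0.0251).

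In other words, the gap between the lines was smaller after either knockdown. In a comparison added after seeing the data, abl against LNCaP with both under siCREB1, 21 members were higher and 7 lower, beside 31.6% and 30.1% of all tested genes, and the median was 0.37. With both lines under siFOXA1, 17 were higher and 12 lower, beside 30.2% and 30.9%, and the median was 0.11. Of the factors, ATF4 kept a difference of 1.23 ± 0.06 and 0.86 ± 0.06, and DDIT3's 0.24 ± 0.11 and 0.27 ± 0.12 were not called. DDIT3 gained an edgeR call in both, higher in abl, without the low-count filter (adjusted p = 0.0348 and 0.0234). The same held when only the groups compared were fitted (edgeR adjusted p = 0.0222 and 0.0222). Without abl siFOXA1 library 2, which leaves 1 library in that group, DDIT3's difference under siFOXA1 was 0.41. SESN2 was lower in abl, by 0.68 ± 0.10 and 1.09 ± 0.10. With library totals as the only scaling, the median over all genes moved to -0.12 under siFOXA1 and the members' median to -0.02, and of all calls 40.8% were higher under siCREB1 and 37.7% under siFOXA1, in place of 51.2% and 49.4%. Leaving out 1 library gave 4 to 6 lower under siCREB1, with 4 without LNCaP siCREB1 library 1 or abl siCREB1 library 2, and 7 to 12 lower under siFOXA1, with 7 without abl siFOXA1 library 2.

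**Figure D4:**
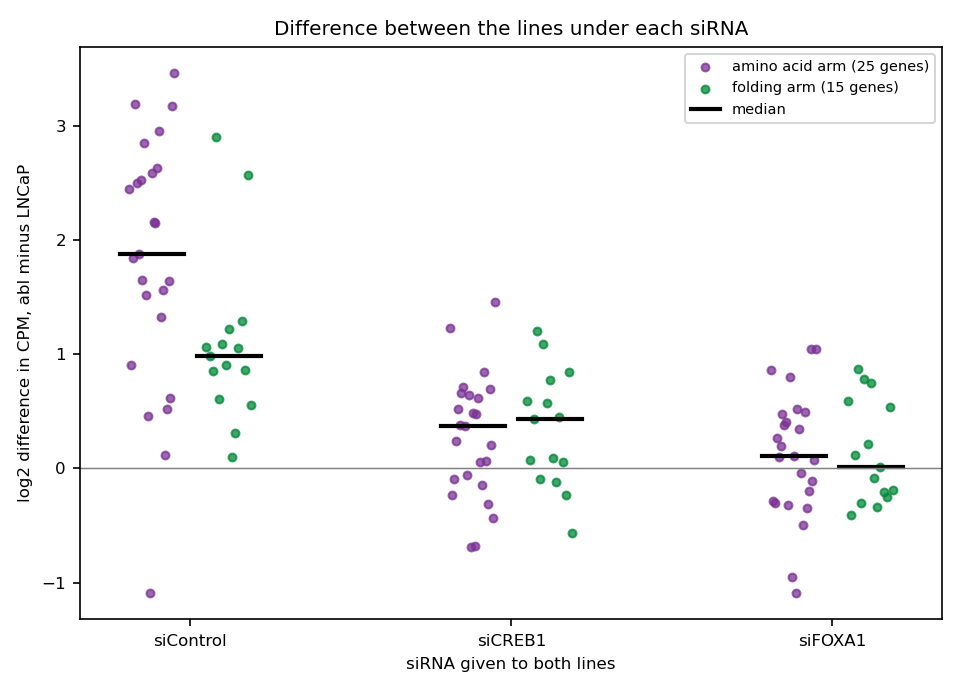
Log2 difference in CPM between abl and LNCaP (y axis) for each gene (points) with both lines under the siRNA named on the x axis, by arm, with a bar at each arm's median. The median of the amino acid arm goes from 1.87 under siControl to 0.37 under siCREB1 and 0.11 under siFOXA1, and that of the folding arm from 0.99 to 0.43 and 0.01.

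The siRNAs were also compared directly. In abl, 24 of 40 members were higher under siCREB1 than under siFOXA1 and 3 were lower, beside 20% and 21% of all tested genes, and the median was 0.29. GPT2 (0.95 ± 0.07), FAM129A (0.91 ± 0.12) and EIF2AK3 (0.83 ± 0.09) had the largest differences, and the 3 lower were CTH (-0.67 ± 0.13), XPOT (-0.25 ± 0.07) and PDIA6 (-0.20 ± 0.06). ATF4 was higher under siCREB1 by 0.62 ± 0.06 (edgeR adjusted p = 1.76e-06), and TRIB3 was not called at 0.03 ± 0.07. In LNCaP, 13 were higher and 7 lower, beside 20.6% and 22.5% of all tested genes, with FAM129A (1.41 ± 0.11), EIF2AK3 (0.99 ± 0.09) and SEL1L (0.62 ± 0.06) the furthest up and SESN2 (-0.58 ± 0.09) and CTH (-0.55 ± 0.12) the furthest down. Leaving out 1 library gave 1 to 5 lower in abl, with 5 without abl siCREB1 library 1 and 1 without library 2. In LNCaP it gave 7 to 11 higher, with 7 without siCREB1 library 2 or siFOXA1 library 1, and 4 to 7 lower, with 4 without siFOXA1 library 1.

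Most other listed genes of the same pathways, none of them among the 40, also fell in abl. The lists were chosen with earlier results of these data known. Of 37 other integrated stress genes, siCREB1 in abl lowered 30 and raised 4, and siFOXA1 lowered 29 and raised 6. In LNCaP the counts were 12 and 6, and 15 and 9. Of all tested genes, 23.7% were lower and 27.5% higher under siCREB1 in abl, and 26.5% and 29.9% under siFOXA1. In LNCaP these shares were 19.8% and 17.8%, and 25.5% and 24.4%. The cystine carrier SLC7A11 fell in abl by 3.38 ± 0.14 and 2.96 ± 0.13, and MTHFD2, a mitochondrial folate enzyme, by 2.61 ± 0.11 and 3.28 ± 0.11. Both were also below control in LNCaP. SLC7A11 had a mean there of 70.2 CPM with siControl, 27.8 with siCREB1 and 40.8 with siFOXA1, and MTHFD2 41.4, 30.1 and 22.3. The amino acid carrier SLC7A5 measured 13.7 and 12.04 CPM with siControl, 5.52 and 5.40 with siCREB1 and 3.92 and 5.39 with siFOXA1 in LNCaP. SLC7A5 in abl measured 1209 and 1240.2 CPM with siControl, 289.8 and 259 with siCREB1 and 174 and 194 with siFOXA1. This was the widest gap between the lines on the list, at 6.56 on the log2 scale. Of the 5 genes for eIF2B, the exchange factor that the response inhibits, 4 rose under siCREB1 and 5 under siFOXA1 in abl. EIF2B5 rose there by 0.72 ± 0.06 and 0.82 ± 0.06 and EIF2B3 by 0.36 ± 0.09 and 0.45 ± 0.09, while EIF2B4 at 0.09 ± 0.07 under siCREB1 was not called. The mean CPM of all 5 was above siControl in LNCaP too under both siRNAs. EIF2B5 went from 56.5 to 62.7 under siCREB1 and 81.2 under siFOXA1 there, and EIF2B4 from 45.5 to 45.6 and 54.4. Under siControl, 32 of the 37 were higher in abl and 0 lower, beside 30.5% and 33.1% of all tested genes.

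Of 46 other unfolded protein genes 44 were tested. In abl each knockdown lowered 33 and raised 1, and in LNCaP siCREB1 lowered 16 and raised 8 and siFOXA1 lowered 16 and raised 13. Beside these stood 23.7% lower and 27.5% higher of all tested genes under siCREB1 in abl, and 26.5% and 29.9% under siFOXA1. The LNCaP shares were 19.8% and 17.8%, and 25.5% and 24.4%. XBP1, spliced by IRE1 into a transcription factor, fell by 1.26 ± 0.06 and 1.54 ± 0.07 in abl and by 0.74 ± 0.06 and 0.66 ± 0.06 in LNCaP. ERN1, which encodes IRE1, fell by 1.95 ± 0.09 and 2.20 ± 0.09 in abl and was not called in LNCaP (-0.09 ± 0.10 and 0.23 ± 0.10). ATF6 fell in abl by 1.56 ± 0.07 and 0.95 ± 0.07, and in LNCaP fell by 0.40 ± 0.07 under siCREB1 and rose by 0.23 ± 0.07 under siFOXA1. Under siControl, 40 of the 44 were higher in abl and 1 lower, beside 30.5% and 33.1% of all tested genes. Gene counts do not tell spliced XBP1 from unspliced.

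Heat shock genes, which answer misfolding outside the ER, moved the other way in abl. Of 14 listed, 13 were tested, and siCREB1 raised 10 and lowered 1 and siFOXA1 raised 12 and lowered 1, with medians of 0.54 and 0.62. The small heat shock gene HSPB1 measured 367 and 262 CPM with siControl, 273 and 305 with siCREB1 and 298 and 296 with siFOXA1 in LNCaP. HSPB1 in abl measured 452 and 312 CPM with siControl, 931 and 785 with siCREB1 and 1196 and 1129.7 with siFOXA1. HSPB1 rose in abl by 1.16 ± 0.16 and 1.60 ± 0.16 and was not called in LNCaP. HSP90AA1, the inducible cytosolic HSP90, rose in abl by 0.74 ± 0.11 and 0.79 ± 0.11. The mitochondrial chaperonin gene HSPD1 was the 1 that fell, by 0.63 ± 0.07 and 1.11 ± 0.08, while its partner HSPE1 rose by 1.18 ± 0.10 and 0.95 ± 0.10. The value of HSPA1B is uncertain because HSPA1A is a near-identical copy. In LNCaP siCREB1 lowered 3 and raised 2, and siFOXA1 lowered 2 and raised 2. The shares of all tested genes higher and lower in abl were 27.5% and 23.7% under siCREB1 and 29.9% and 26.5% under siFOXA1. Those lower and higher in LNCaP were 19.8% and 17.8%, and 25.5% and 24.4%.

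**Figure D5:**
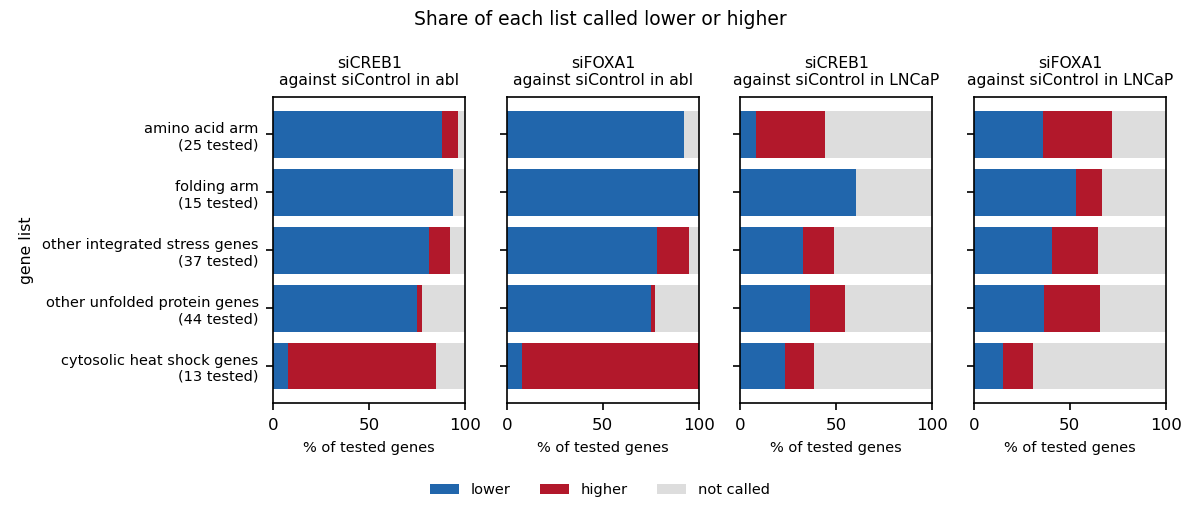
Share of the tested genes of each list (y axis) called lower (blue) or higher (red) by edgeR, in percent (x axis), for the 4 knockdown comparisons (panels). In the abl panels both arms and both other stress lists are mostly blue, with 36 and 38 of the 40 members lower, and the heat shock list is mostly red.

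The authors' deposited tables of knockdown against control list genes that passed their own test. In abl they list 38 members for siCREB1 (36 lower, 2 higher) and 38 for siFOXA1 (38 lower), the members called here, with the same signs. For LNCaP the authors' deposited tables list 17 and 21 members, all with the sign found here, and leave out 3 and 7 that were called here. Those tables came from the same counts, so they are not separate support.

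Markers of other cells summed to far less than the luminal markers in every library, and some moved with the groups. Luminal markers summed to 2401 to 2669 CPM in the abl controls and to 3042 to 3279 CPM after knockdown in abl, and to 3604 to 4015 CPM in LNCaP. Fibroblast markers (5 genes, 1 at 0 in every library) summed to 10.5 to 12.3 CPM in the abl controls and to 59.01 to 66.2 in the LNCaP controls. In LNCaP they came to 75.5 to 82.2 CPM under siCREB1 and 83.8 to 98.7 under siFOXA1. COL1A1 carried most of the LNCaP sums, with 1479 and 962 reads in the controls and 2283 and 2124 under siFOXA1. The sum of 3 endothelial markers was carried by VWF, with 849 and 433 reads in the LNCaP controls and 62 and 62 under siFOXA1 there, beside 9 to 20 for PECAM1 and 0 to 1 for CDH5 in these libraries. It came to 28.7 to 31.4 CPM in the LNCaP controls and to 2.72 to 3.25 under siFOXA1 there. Blood markers (7 genes) summed to 11.5 to 35.1 CPM over the 12 libraries, with the difference between control libraries given above. Their part in the results was not tested. The library kit does not mark strand, so reads of a member and of an overlapping or antisense gene cannot be told apart.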

How the data were processed

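RNA was sequenced from 6 groups (LNCaP and abl, each under siControl, siCREB1 or siFOXA1). The authors deposited raw read counts per gene, 2 columns per group, and per the submitters' processing notes used CASAVA 1.8, TopHat2 2.0.8, Bowtie2 2.1.0, HTSeq 0.5.3p9 and hg19. For the counting, neither the gene annotation nor the strand setting is stated by the labels or headers. The authors also deposited tables of edgeR (3.0.6 in the submitters' processing notes) log2 fold changes and p-values per knockdown, used only beside the results. Columns named SIC were read as siControl, and 8 repeated control columns, all identical, were used once. Reads in no gene (54.85% to 58.25%) or in several (0.774% to 0.924%) were left out.

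Of 23230 genes 15550 passed edgeR's filter on low counts (edgeR 4.0.16, R 4.3.3). All 12 libraries entered 1 quasi-likelihood fit with TMM scaling, 6 residual degrees of freedom and a common coefficient of variation of 0.0625. Each contrast was tested with Benjamini-Hochberg adjustment over the 15550 genes, with a call at adjusted p below 0.05. SE is the size of the log2 change over the square root of F. The fit was tested on simulated counts. The members and lists were chosen with earlier results of these data known. Per-library values are given for the transcription factors, the sensors and feedback genes and, in each other role, up to 4 members with the largest change in any knockdown comparison. Alternatives were other scalings, other low-count filters, only the groups compared, DESeq2 1.42.0, a stricter threshold, a replicate block, leaving out each library and, added after seeing the data, leaving out library 1 of both siControl groups. Samples with the same library number did not deviate together in all pairs of groups, so numbers were not taken as pairs. The 3 peak lists are on hg19 and were not tied to genes, and 8 knockdown ChIP samples were not analysed here.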

Additional observations from a re-analysis of the deposited data

Results flagged for a closer look

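The difference between the lines was itself tested and passed for most members: the siCREB1 effect was lower in abl than in LNCaP for 35 of 40, and the siFOXA1 effect for 36 of 40. Both tests use the same abl and LNCaP control libraries.

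Under siCREB1, 8 members were called in opposite directions, down in abl and up in LNCaP. The differences between the lines (abl minus LNCaP, log2) were -2.95 for DDIT3, -2.84 for SESN2, -2.48 for TRIB3 and -2.10 for DDIT4. They were -1.98 for CEBPB, -1.93 for ATF3, -1.86 for NUPR1 and -1.57 for PPP1R15A. These are transcription factors, feedback genes and mTOR brakes, and none is an enzyme or a chaperone of the list. Of all tested genes, 23.7% were lower in abl and 17.8% higher in LNCaP under siCREB1. The share of all genes called in both ways was not computed for either siRNA, so the member counts lack that background.

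Under siFOXA1, 11 members were called in opposite directions, again down in abl and up in LNCaP. The differences were -3.25 for SESN2, -2.48 for DDIT4, -2.40 for CEBPB, -2.15 for ATF3, -2.05 for NUPR1 and -2.03 for the co-chaperone DNAJB9. They were -1.84 for PPP1R15A, -1.68 for CEBPG, -1.27 for JDP2, -1.19 for ATF5 and -1.11 for EDEM1. Of all tested genes, 26.5% were lower in abl and 24.4% higher in LNCaP under siFOXA1. When 1 library was left out, at least 1 fit lost the LNCaP call of CEBPB, PPP1R15A, SESN2 and TRIB3 under siCREB1, and that of ATF5, CEBPG, DDIT4, NUPR1 and PPP1R15A under siFOXA1. With 2 libraries in a group, single outlying libraries could not be tested for.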

How the results depend on the processing

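Over all alternatives, 6320 values of single members were recomputed. Of these, 6039 stayed on the same side of the threshold, 235 lost the call and 46 gained one. With a call in either fit, 0 reversed direction. Values called in neither fit were counted as unchanged without comparing their signs. Of 316 recomputed member counts, 300 stayed within 1.5 times the reported one and 16 did not. For the line difference in the siFOXA1 effect, 1 member was higher in place of 0 with upper-quartile scaling, without the low-count filter and with the replicate block, and 0 to 1 when 1 library was left out. At adjusted p below 0.01, 7 members in place of 11 were higher under siFOXA1 in LNCaP, and 7 in place of 13 in siCREB1 against siFOXA1 in LNCaP. Leaving out 1 library gave 10 to 14 lower under siFOXA1 in LNCaP (17 with all), 7 to 11 higher and 4 to 7 lower in siCREB1 against siFOXA1 in LNCaP (13 and 7), 1 to 5 lower in the same comparison in abl (3), and, for abl against LNCaP, 4 to 6 lower under siCREB1 (7) and 7 to 12 lower under siFOXA1 (12). The cause was not tested, beyond the fewer libraries in each such fit. In abl, 35 to 36 were lower under siCREB1 and 37 to 39 under siFOXA1 when 1 library was left out. Library numbers did not pair the samples (r of -0.047 to 0.231 over 15 pairs of groups, 3 over 0.1), and the replicate block moved no other member count by over 1.5 times. With the block, DDIT4 under siFOXA1 in LNCaP (edgeR adjusted p = 0.0506) and DDIT3 in siCREB1 against siFOXA1 in abl (0.0536) were not called. Calls were made with it for CTH (lower, 0.0498) and HERPUD1 (higher, 0.0296) under siCREB1 in LNCaP, PCK2 under siFOXA1 in LNCaP (lower, 0.0445), EIF2AK3 in the siFOXA1 line difference (higher, 0.0417) and PPP1R15A in abl against LNCaP under siFOXA1 (lower, 0.0491). The 2 alternatives on peaks were not run, since the peaks are on hg19 and the gene table used is on GRCh38. Depth limits small changes most in the abl control with 9092597 gene reads.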

Other observations

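The genes below belong to the wider pathway lists and were chosen after their values were seen. ERO1L, the oxidase that drives disulfide formation in the ER, measured 18.7 and 18.96 CPM with siControl, 12.4 and 11.7 with siCREB1 and 55.5 and 52.2 with siFOXA1 in LNCaP. ERO1L in abl measured 30.03 and 30.98 CPM with siControl, 11.6 and 12.6 with siCREB1 and 41.5 and 41.3 with siFOXA1. It fell under siCREB1 by 0.65 ± 0.08 in LNCaP and 1.33 ± 0.08 in abl and rose under siFOXA1 by 1.51 ± 0.08 and 0.45 ± 0.07. The direct comparison of siCREB1 with siFOXA1 was -2.16 ± 0.08 in LNCaP and -1.77 ± 0.08 in abl (edgeR adjusted p = 1.59e-10 and 3.09e-09). EDEM3, a mannosidase of ER-associated degradation, fell in both lines under both siRNAs, and further under siCREB1. Its direct comparison of siCREB1 with siFOXA1 was -1.38 ± 0.08 in LNCaP and -1.09 ± 0.08 in abl (edgeR adjusted p = 2.46e-08 and 3.52e-07).

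GDF15, a secreted stress cytokine, measured 151 and 107 CPM with siControl, 147 and 176 with siCREB1 and 127 and 122 with siFOXA1 in LNCaP. In abl GDF15 measured 115 and 95.95 CPM with siControl, 25.7 and 17.3 with siCREB1 and 30.9 and 15.8 with siFOXA1. Its line difference under siControl, -0.29 ± 0.22, was not called (edgeR adjusted p = 0.284), yet it fell in abl by 2.31 ± 0.25 and 2.19 ± 0.25 under siCREB1 and siFOXA1. CRYAB, a small heat shock gene, rose under siFOXA1 by 3.96 ± 0.15 in LNCaP and 3.73 ± 0.14 in abl, and the largest rise of any member in the 4 knockdown comparisons was 1.05.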
